A study of Homo sapiens with 18 samples.

Results

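Interferon-stimulated genes are genes that cells switch on when an interferon binds its receptor. A set of 43 was followed here by gene symbol through every RNA library of a study of Jagged1 in MDA-MB-231 cells, an established human line of triple-negative breast cancer. Of these 43 genes, 42 were found among the 21119 genes with a symbol in the count table, and CMPK2 was not analysed here. The study grew the cells as spheroids in 3D Matrigel (50000 cells seeded in Matrigel at 2 mg/ml) and sequenced mRNA at day 7, with 3 libraries in each of 6 groups. The groups were the following. Jag1WT was the parental line, untransfected. Jag1KO was the same line after Cas9 editing of JAG1, kept as a mix of 15 single-cell clones. Jag1KO + rescue was Jag1KO carrying a pcDNA3.1 plasmid with Jagged1 cDNA, and Jag1KO + ctrl was Jag1KO carrying the empty pcDNA3.1, both kept under G418 selection. siCtrl was Jag1WT given a nontargeting siRNA, and siJag1 was Jag1WT given a cocktail of siRNAs against Jagged1. Both were transfected with Lipofectamine RNAiMAX, at 25 nM siRNA and 7 hours before seeding. All groups thus share 1 parental line, the Jag1KO groups share 1 pool of edited clones, and the 3 libraries of a group are biological replicates by their labels, which do not say what was repeated beyond the culture.

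Type I and type III interferons act through the kinases JAK1 and TYK2 on a transcription factor complex that holds STAT2 and IRF9 and binds the interferon-stimulated response element (ISRE) in the promoters of its target genes. Interferon gamma acts on another element, the gamma-activated site (GAS). Double-stranded RNA and DNA in the cytoplasm can set off the same program through sensors such as RIG-I, MDA5 and cGAS. These genes are therefore commonly read as a check on cultures that received siRNA or plasmid DNA. The comparisons below address that question as it stood at day 7, and then how the genes stood in cultures with more or less JAG1. A response that had ended by day 7 would not be seen, and the plasmid pools were kept under selection.

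The promoters show what these genes share by sequence. RefSeq promoters (build GRCh38.p14, 250 bases before to 50 after the gene start) were at hand for 34 of the 43 genes. The ISRE core, read here as GAAA followed after any 2 bases by GAAA and searched on both strands, was present in 22 of these 34 (64.7%) and in 3.57% of 35116 promoters of all genes. The GAS letters TTCNNNGAA, which read alike on both strands and may overlap an ISRE core, were in 10 of 34 (29.4%) and in 7.66% of all promoters. A match in letters is a description and not a measured binding site. The windows below, each 60 bases upstream of the start on the strand of the gene, are examples chosen among members with an ISRE core. BST2, OAS3, IFIT1 and IFI27 are named in the results that follow, IFITM3 had the highest level, and ISG15 is a standard readout. Among the other members named below, OAS2, TRIM22, GBP2, USP18 and OASL had no promoter at hand. Those of IRF1, HERC6 and STAT2 held no ISRE core. Further named members with a core, such as IFI44 and IFI6, are not shown. Capitals mark every base of an ISRE core or of its reverse complement. Neighbouring cores overlap in BST2 and ISG15, and other bases lie between them in IFIT1, IFI27 and IFITM3.
BST2 (chr19:17405726-17405785, minus strand): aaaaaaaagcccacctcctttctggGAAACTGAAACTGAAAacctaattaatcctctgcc
OAS3 (chr12:112938306-112938365, plus strand): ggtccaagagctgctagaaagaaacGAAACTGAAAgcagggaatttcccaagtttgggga
IFIT1 (chr10:89392482-89392541, plus strand): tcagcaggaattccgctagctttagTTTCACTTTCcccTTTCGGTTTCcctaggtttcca
IFI27 (chr14:94110603-94110662, plus strand): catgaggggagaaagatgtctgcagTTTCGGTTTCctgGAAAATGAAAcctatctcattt
IFITM3 (chr11:320861-320920, minus strand): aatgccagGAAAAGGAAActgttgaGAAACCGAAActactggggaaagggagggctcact
ISG15 (chr1:1013359-1013418, plus strand): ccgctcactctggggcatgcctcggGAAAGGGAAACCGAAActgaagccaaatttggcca

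The libraries held 10330581 to 18327890 reads counted on genes. JAG1, the targeted gene, behaved as its labels say. Its level in CPM, the authors' counts scaled to TMM-normalised library sizes, was 433, 585 and 522 in Jag1WT, 441, 626 and 531 in siCtrl and 534, 657 and 646 in Jag1KO + rescue (replicates 1, 2 and 3). It was 116, 205 and 149 in Jag1KO, 110, 134 and 147 in Jag1KO + ctrl and 166, 203 and 131 in siJag1, so that every library meant to be low lay below every library meant to be high. By edgeR's quasi-likelihood test with Benjamini-Hochberg adjustment over all genes, the log2 fold change was 1.71 in Jag1WT over Jag1KO (SE 0.219, adjusted p = 0.0162) and 2.22 in Jag1KO + rescue over Jag1KO + ctrl (SE 0.177, adjusted p = 0.0229). In siCtrl over siJag1 it was 1.68 (SE 0.191), with an adjusted p of 0.111 in that test. The row holds reads of the edited gene and of the plasmid's cDNA alike and says nothing of protein. As a check of the cell type, VIM lay between 2180 and 4950 CPM, CDH1 at or below 1.16 CPM and ESR1 at or below 0.136 CPM, while ERBB2 had a mean of 40.3 CPM. PGR had at most 1.77 CPM, in Jag1KO + rescue replicate 1, which also held the highest CDH1 and ESR1. Of the other markers listed as high, CD44, AXL, CAV1, KRT8 and KRT18 had at least 31.0 CPM in every library, while S100A4 ran from 1.84 to 38.6 CPM. Of 10 immune cell markers with a row, 7 stayed below 1 CPM in every library (PTPRC at most 0.196), and CD68 was at 88.9 to 209 CPM.

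Most of the interferon-stimulated genes were read in these cultures without any interferon having been added. Of the 42, 27 had a mean above 10 CPM over the 18 libraries, 10 lay between 1 and 10 CPM and 5 at or below 1 CPM, and 39 had reads in every library. Levels of different genes are compared below as RPKM, which divides the CPM by the authors' length of each gene. The most highly expressed was IFITM3, a membrane protein that blocks fusion of enveloped viruses, with a mean of 188 RPKM and 156 to 260 RPKM across the libraries. Its relatives IFITM2 (58.4 RPKM) and IFITM1 (16.4 RPKM) followed, and BST2 (tetherin, which holds budding virions at the cell surface) was at 3.17 RPKM. IRF1, a transcription factor of the interferon gamma arm, led the regulators with 23.9 RPKM, ahead of STAT2 (14.6 RPKM), IRF9 (11 RPKM) and IRF7 (9.09 RPKM).

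Levels of the effectors were spread widely. IFIT3, of the family of proteins with tetratricopeptide repeats that bind viral RNA, had 17.0 RPKM and IFIT1 of the same family only 0.942 RPKM. ISG15, the ubiquitin-like modifier, had 18.7 RPKM, its ligase HERC5 4.42 RPKM, and USP18, which removes ISG15 and damps receptor signalling, 0.599 RPKM. Among the members of the OAS family, OASL had the highest level (2.94 RPKM), and among the interferon-inducible GTPases it was GBP1 (6.09 RPKM). DTX3L (8.79 RPKM), a ubiquitin ligase that partners PARP9, SAMD9 (7.89 RPKM), the helicase DDX60 (2.01 RPKM) and the exonuclease ISG20 (1.39 RPKM) led the other groups, together with IFI27 (19.2 RPKM), a small mitochondrial protein.

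The genes at the floor were textbook responders. RSAD2 (viperin) had 1 read in all 18 libraries together, where a count of 0 allows up to 3 reads or 0.164 to 0.291 CPM in a library, counting error only. MX1 and MX2, dynamin-like GTPases that trap viral nucleocapsids, had at most 1.67 and 0.879 CPM. OAS1, which makes the 2'-5' oligoadenylates that activate RNase L, had at most 1.57 CPM, and EPSTI1 at most 1.24 CPM. MX1 was at 0.783 to 1.67 CPM in the 9 libraries of the parental line (Jag1WT, siCtrl and siJag1) and at 0.00 to 0.707 CPM in the 9 libraries of the edited pool, without overlap and with at most 23 reads in a library, which is a description with no test.

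**Figure D1:**
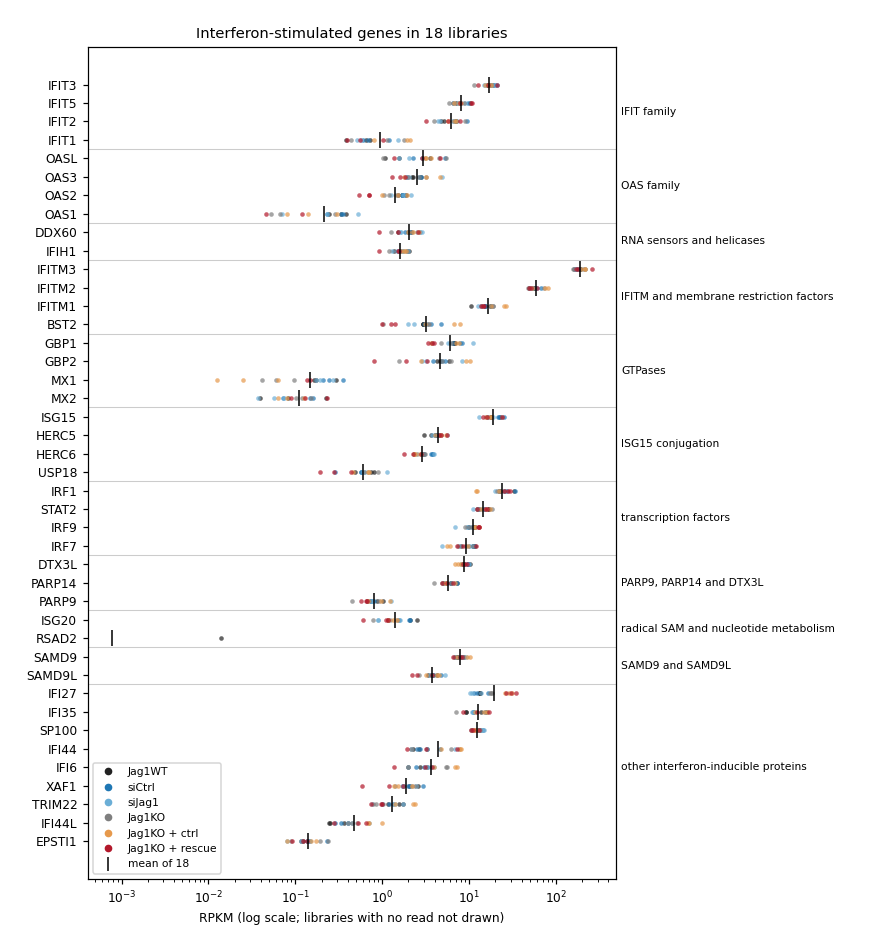
Level of each of the 42 interferon-stimulated genes in each of the 18 libraries, as RPKM on a log axis. Points are libraries coloured by group, ticks are means of 18, and rows are grouped by role. IFITM3 stands highest with a mean of 188 RPKM, and the libraries of most genes lie close together beside the wide span between genes.

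Reads of some members cannot be assigned with certainty. Of all stretches of 50 bases in the main GENCODE 44 transcript, 92.8% for IRF9, 55.1% for IFITM1, 52.9% for USP18, 21.9% for IFI6, 20.8% for IFITM3, 14.0% for GBP1 and 12% for IFITM2 also occurred in a transcript annotated to another gene. The study counted uniquely mapped reads, so the levels of these 7 genes are uncertain. IFITM1, IFITM2 and IFITM3 lie side by side on chromosome 11 (hg38, 303655 to 329475), and the OAS1, OAS3 and OAS2 genes on chromosome 12 (112905856 to 113011723).

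The first question was whether transfection with a nontargeting siRNA left a trace at day 7. No group received the transfection reagent alone, so siRNA and reagent cannot be told apart. No member was called higher or lower in siCtrl than in Jag1WT (39 tested; edgeR's quasi-likelihood test with Benjamini-Hochberg adjustment, adjusted p below 0.05 and over 1.5-fold), and the share called of all 12797 genes was also 0%. At an unadjusted p below 0.05 there was 1 member, against 1.38% of all genes, and limma and DESeq2 called 0 as well. The median log2 fold change of the members was 0.12 and that of all genes 0.00. For 36 of the 39 the upper 95% limit lay under a 2-fold rise, as it did for 96.6% of all genes, and IFIT1, OASL and MX1 were the exceptions.

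The member with the unadjusted p below 0.05 was HERC6, a relative of the ISG15 ligase HERC5. It had 15.9, 15.2 and 14.8 CPM in siCtrl and 12.4, 12 and 9.65 CPM in Jag1WT, without overlap. Its log2 fold change was 0.42 (SE 0.141), with an adjusted p of 1.00 in the edgeR test. The widest difference was that of OASL, an OAS relative without synthetase activity, with 4.74, 11 and 6.01 CPM in siCtrl and 2.27, 7.37 and 3.26 CPM in Jag1WT. These groups overlapped, the second replicate being the highest in both, and the log2 fold change was 0.76 with a 95% interval from -0.25 to 1.77. Each siCtrl library lay above the Jag1WT library of the same number for OASL, and the interval is from a fit without pairs. IFIT1 (log2 fold change 0.49, interval -0.26 to 1.24) and USP18 (-0.49, interval -1.30 to 0.32) came next. ISG15 had 16.6, 14.6 and 14.4 CPM in siCtrl and 11.9, 14.9 and 11.9 CPM in Jag1WT, which overlapped, with a log2 fold change of 0.23 (SE 0.146).

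The siRNAs against Jagged1 gave the same count. In siJag1 against Jag1WT 38 members were tested and 0 called by edgeR, limma or DESeq2, with 0% of all genes called by edgeR and 1 member at an unadjusted p below 0.05 (3.91% of all genes). JAG1 itself, at a log2 fold change of -1.64 (SE 0.190), was not called by edgeR there (adjusted p = 0.154). A count of 0 called thus does not show that no member changed. The median log2 fold change was -0.04 for the members and 0.00 for all genes, and 31 of 38 had an upper 95% limit under a 2-fold rise (92.3% of all genes). IFI44L, an inducible protein with a GTP-binding fold, had 2.38, 4.16 and 2.66 CPM in siJag1 and 1.45, 1.5 and 2.15 CPM in Jag1WT. These groups did not overlap, and the log2 fold change was 0.84 (SE 0.321, adjusted p = 0.928 by edgeR). The exonuclease gene ISG20 had 4.48, 4.49 and 7.97 CPM against 5.87, 12.5 and 10.4 CPM in Jag1WT, which overlapped, and its log2 fold change was -0.78 (SE 0.343). IFI44 had 5.78, 18.3 and 8.74 CPM in siJag1 and 6.00, 8.79 and 7.04 CPM in Jag1WT, so the difference of 0.59 on the log2 scale (SE 0.408) rested on 1 library and was -0.03 without siJag1 replicate 2. That library also stood apart in its growth genes, described below, and with these as a term in a fit of all 18 libraries the difference was -0.08.

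**Figure D2:**
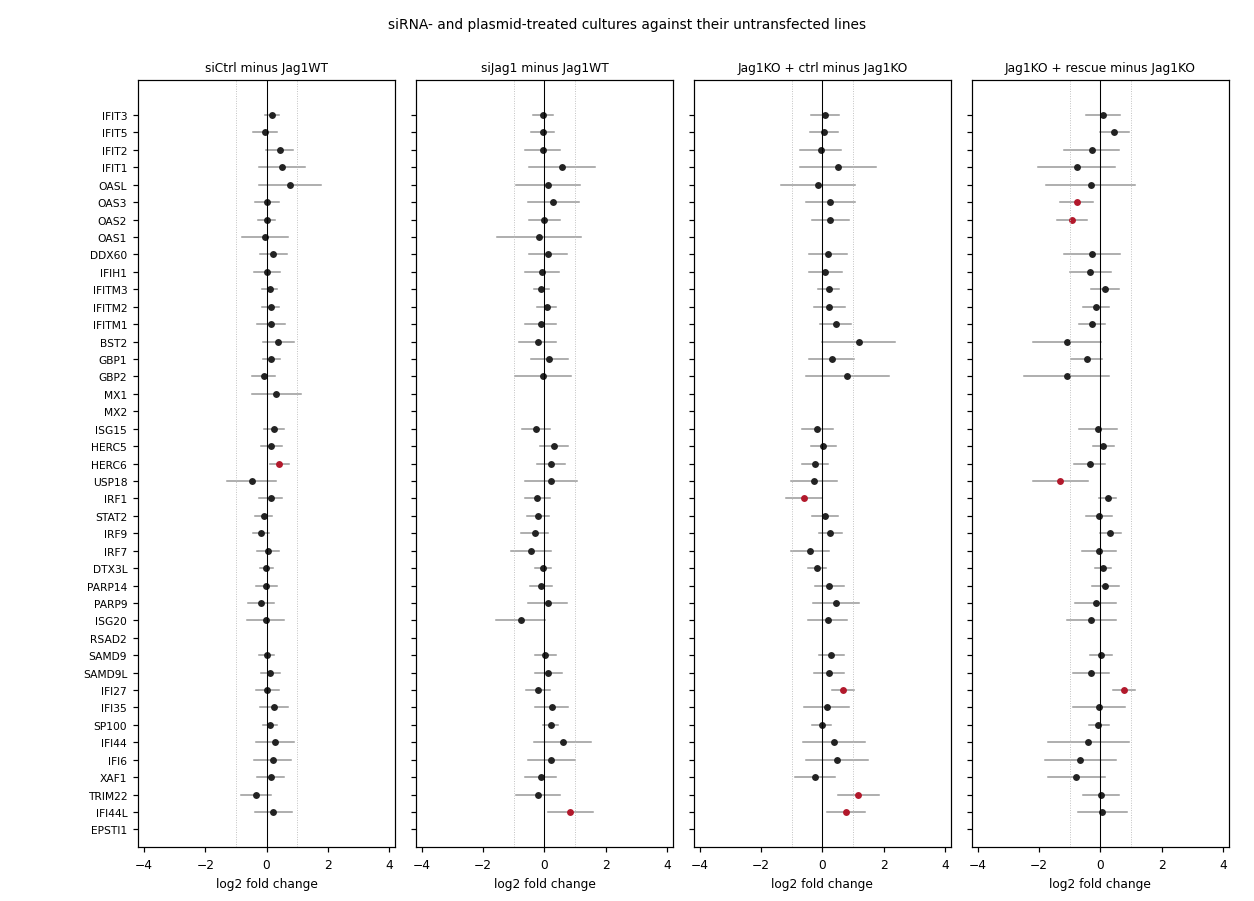
Log2 fold change of each tested member with its 95% interval (edgeR) in the siRNA- and plasmid-treated groups against the untransfected line each was made from, 3 against 3 libraries a panel. Red points have an unadjusted p below 0.05 and dotted lines mark 2-fold. No member passed the adjusted threshold in these comparisons, and most points lie within the dotted lines.

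The pools with a plasmid were set against Jag1KO. In Jag1KO + ctrl against Jag1KO 37 members were tested and 0 called by edgeR, limma or DESeq2, with 0% of all 12956 genes called by edgeR. At an unadjusted p below 0.05 there were 4 members (IFI27, IFI44L and TRIM22 higher, IRF1 lower), against 5.81% of all genes. The median log2 fold change was 0.20 for the members and -0.01 for all genes, and only 25 of 37 had an upper 95% limit under a 2-fold rise (83.9% of all genes), the interval of the other 12 reaching 2-fold or beyond. In Jag1KO + rescue against Jag1KO, which shares the Jag1KO libraries, 37 were tested and 0 called by edgeR or limma, with 0.0235% of all genes called by edgeR. There were again 4 members at an unadjusted p below 0.05 (16.9% of all genes), the median was -0.15 against -0.01, and 35 of 37 had an upper limit under a 2-fold rise (90.1% of all genes). DESeq2 called IFI27 higher and OAS2 lower in that comparison, with 1.86% of all genes called.

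IFI27, the small mitochondrial protein, was highest in the plasmid-carrying pools. Its level was 25.4, 22.1 and 29.0 CPM in Jag1KO + rescue and 23.9, 21.6 and 25.5 CPM in Jag1KO + ctrl. In Jag1KO it was 14.2, 15.2 and 14.6 CPM, and in the 9 libraries of the parental line it lay between 8.39 and 13.6 CPM. All 6 libraries with a plasmid thus lay above all 12 without, and Jag1KO lay above all libraries of the parental line. The log2 fold change over Jag1KO was 0.78 in Jag1KO + rescue (SE 0.156, edgeR adjusted p = 0.203) and 0.68 in Jag1KO + ctrl (SE 0.151, edgeR adjusted p = 0.757), both short of the threshold. Between Jag1KO + rescue and Jag1KO + ctrl it was 0.10, with a 95% interval from -0.28 to 0.47. Plasmid and G418 came together in both pools and cannot be told apart.

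Other members had values that differed in sign or size between these 2 comparisons. TRIM22, a tripartite-motif ligase with antiviral activity, had 7.37, 6.89 and 4.33 CPM in Jag1KO + ctrl and 2.41, 2.63 and 3.15 CPM in Jag1KO, without overlap. Its log2 fold change was 1.17 (SE 0.288, edgeR adjusted p = 0.757), and without Jag1KO + ctrl replicate 3 it was called higher at 1.38 (edgeR adjusted p = 0.0439) together with 1 member called lower, IRF1, and 2.35% of all genes. In Jag1KO + rescue, at 2.32, 3.04 and 2.99 CPM, its log2 fold change over Jag1KO was 0.01. BST2 had a log2 fold change over Jag1KO of 1.18 in Jag1KO + ctrl (SE 0.515) and -1.09 in Jag1KO + rescue (SE 0.476). For GBP2, a guanylate-binding protein induced by interferon gamma, these were 0.80 (SE 0.582) and -1.10 (SE 0.594).

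OAS2 and OAS3 had their lowest group means in Jag1KO + rescue (6.13 and 10.4 CPM), while OASL of the same family had 6.16 CPM there and 4.30 CPM in Jag1WT. OAS2, which makes oligoadenylates as OAS1 does, had 5.11, 6.65 and 6.62 CPM there and 9.39 to 20.3 CPM in the other 15 libraries. Its log2 fold change over Jag1KO was -0.91 (SE 0.212, edgeR adjusted p = 0.209). OAS3 had 8.59, 10.5 and 12 CPM against 13.3, 17.8 and 21.3 CPM in Jag1KO (log2 fold change -0.77, SE 0.227), and a level of 11.7 CPM in Jag1KO + ctrl replicate 3 fell within the range of the rescue. USP18 had 0.409, 0.919 and 0.586 CPM against 1.89, 1.31 and 1.43 CPM in Jag1KO, without overlap, at 6 to 44 reads in a library over the whole series (log2 fold change -1.30, SE 0.389, edgeR adjusted p = 0.232).

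The siCtrl and empty plasmid differences were also set against each other, as (siCtrl minus Jag1WT) minus (Jag1KO + ctrl minus Jag1KO) over 12 libraries. Of 37 members 0 passed an adjusted p below 0.05 in edgeR, as 0% of all genes did, and limma also called 0, with 5 members at an unadjusted p below 0.05 (8.09% of all genes). Without Jag1KO + ctrl replicate 3, 2 members passed, as did 6.48% of all genes.

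**Figure D3:**
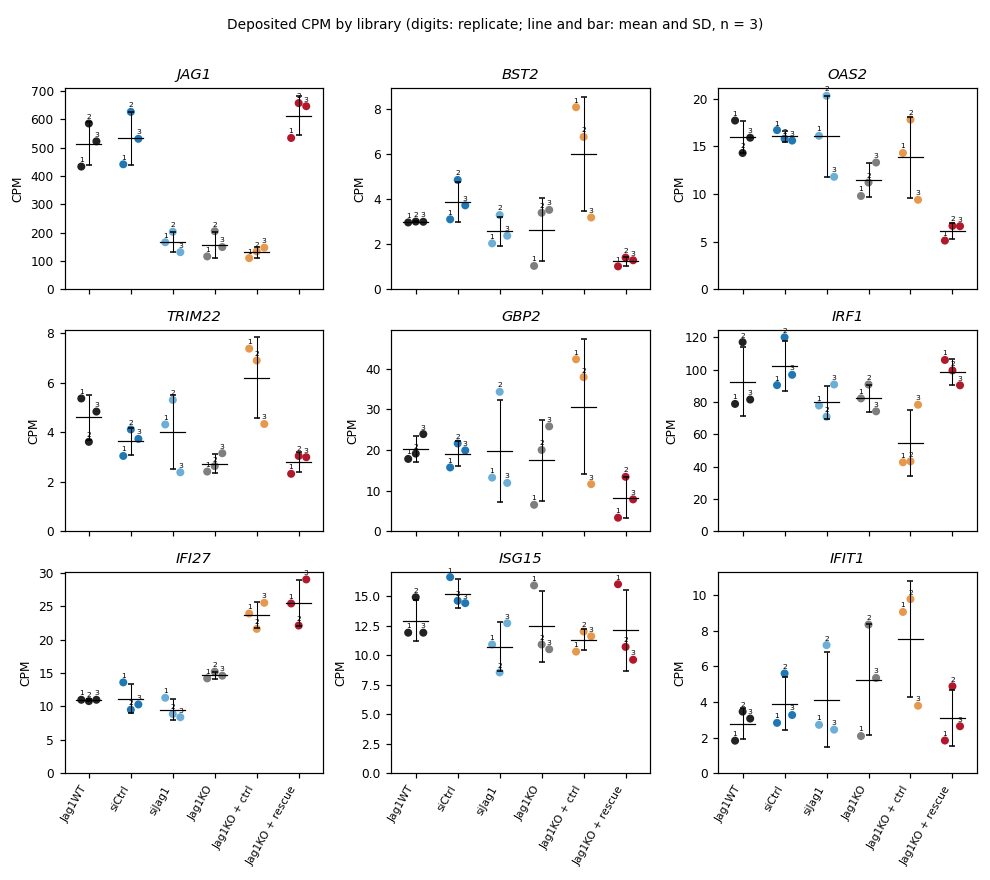
CPM of JAG1 and 8 interferon-stimulated genes in each library, by group, with digits for replicates and lines and bars for the mean and SD of 3. IFI27 is highest in the 6 libraries with a plasmid, and in Jag1KO + ctrl replicates 1 and 2 lie apart from replicate 3 for BST2, GBP2, IRF1 and IFIT1.

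The second question was whether these genes differed with JAG1. In Jag1WT against Jag1KO 37 members were tested and 0 called, with 0.714% of all 12879 genes called by edgeR, and limma and DESeq2 called 0 members too. There were 5 members at an unadjusted p below 0.05 (8.81% of all genes): OAS2 and TRIM22 higher in Jag1WT, and IFI27, IFI44 and IFI44L lower. The median log2 fold change was 0.04 for the members and -0.01 for all genes, and for 27 of 37 the whole 95% interval lay within 2-fold in either direction (82.5% of all genes). Between groups that did not overlap, 4 members were higher in Jag1WT (7.24% of all genes) and 3 lower (6.58% of all genes).

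OAS2 had 17.7, 14.3 and 15.9 CPM in Jag1WT and 9.79, 11.2 and 13.3 CPM in Jag1KO, a log2 fold change of 0.48 (SE 0.176). TRIM22 had 5.36, 3.61 and 4.83 CPM in Jag1WT, also above Jag1KO without overlap, with 0.76 (SE 0.247, edgeR adjusted p = 0.385). IFI44 had 5.81, 20.5 and 16.4 CPM in Jag1KO, IFIT1 2.09, 8.34 and 5.35 CPM and OASL 2.15, 11.4 and 9.27 CPM. In these 3 genes, which had the widest differences, Jag1KO replicate 1 lay within or just below the range of Jag1WT and the other 2 replicates above it. Their log2 fold changes were -0.97 (SE 0.420), -0.92 (SE 0.486) and -0.83 (SE 0.622). Without Jag1KO replicate 1 edgeR called 3 members lower in Jag1WT (IFI44, IFI6 and IFIT1), with 7.30% of all genes called.

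The acute knockdown was read in the same way. In siCtrl against siJag1 39 members were tested and 0 called by edgeR, limma or DESeq2, with 0.0157% of all 12774 genes called by edgeR, and 3 members had an unadjusted p below 0.05 (3.83% of all genes). JAG1 itself was not called by edgeR in this comparison (adjusted p = 0.111), so a count of 0 does not show that no member changed. The median log2 fold change was 0.10 for the members and -0.01 for all genes. ISG15 had 10.9, 8.54 and 12.7 CPM in siJag1, all below siCtrl, with a log2 fold change of 0.52 (SE 0.182, edgeR adjusted p = 0.970). ISG20 (0.76, SE 0.269) and IRF1 (0.36, SE 0.136) were the other 2, both with overlapping groups. USP18 (-0.70, SE 0.397) and OASL (0.64, SE 0.374) completed the widest 3 with ISG20. A test of the difference between Jag1WT over Jag1KO and siCtrl over siJag1 found 0 of 37 members past an adjusted p below 0.05 in edgeR and 0 in limma, with 0.110% of all genes past it in edgeR and 2 members at an unadjusted p below 0.05 (3.88% of all genes).

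The widest differences lay between Jag1KO + rescue and Jag1KO + ctrl, where most members had lower values with the Jagged1 cDNA, without any passing the test. Here 36 members were tested and 0 called, with 0.00778% of all 12850 genes called by edgeR, which is 1 gene. At an unadjusted p below 0.05 there were 12 members, 2 higher and 10 lower in the rescue, against 14.4% of all genes higher and 16.4% lower. Thus 12 of 36 is near the 30.8% of all genes that did so. Fold changes were below 0 in 27 of 36 members and above 0 in 49.8% of all genes, and the median was -0.32 for the members and 0.00 for all genes. In groups that did not overlap, 9 members were lower (16.0% of all genes) and 2 higher (16.5% of all genes).

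The membrane restriction factor BST2 had 1.02, 1.41 and 1.29 CPM in Jag1KO + rescue and 8.09, 6.77 and 3.19 CPM in Jag1KO + ctrl. The groups did not overlap, and the log2 fold change was -2.27 (SE 0.396, edgeR adjusted p = 0.104), a mean ratio of 0.206 in CPM. GBP2 had 3.34, 13.4 and 7.85 CPM against 42.3, 37.9 and 11.6 CPM, which overlapped, with a log2 fold change of -1.90 (SE 0.588, edgeR adjusted p = 0.111). OAS2 had 14.3, 17.8 and 9.39 CPM in Jag1KO + ctrl, all above the rescue, and a log2 fold change of -1.18 (SE 0.273, edgeR adjusted p = 0.104). TRIM22 also lay lower in the rescue without overlap, by -1.16 on the log2 scale (SE 0.286), as did IFITM1 by -0.69 (SE 0.200) and IFI6, a protein of mitochondria and the endoplasmic reticulum, by -1.13 (SE 0.419). IFIT1 had 1.84, 4.88 and 2.64 CPM in the rescue and 9.05, 9.77 and 3.79 CPM in Jag1KO + ctrl, which overlapped, with -1.28 (SE 0.469).

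IRF1 went the other way, with 106, 99.5 and 90.3 CPM in the rescue and 42.7, 43.3 and 78.3 CPM in Jag1KO + ctrl. Its log2 fold change was 0.84 (SE 0.249, edgeR adjusted p = 0.108) with no overlap, and Jag1KO + ctrl replicates 1 and 2 were the lowest of all 18 libraries. Among highly expressed members IFITM3 differed by -0.05 (95% interval -0.47 to 0.37), IFIT3 by 0.01 (-0.45 to 0.48) and ISG15 by 0.09 (-0.45 to 0.63), all on the log2 scale.

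The number of members passing depended on the library Jag1KO + ctrl replicate 3. For BST2, OAS2, TRIM22 and IRF1 it lay between the rescue and the other 2 libraries of its group. For GBP2 and IFIT1 it lay within the range of the rescue. Replicates 1 and 2 thus held the larger differences for these genes, and the median of the members was -0.39 without replicate 3, against -0.32 with it. Without it edgeR called 1 member higher (IRF1) and 10 lower (BST2, GBP1, GBP2, IFI6, IFIT1, IFITM1, OAS2, OAS3, PARP9 and TRIM22), and 28.8% of all genes were called. With all 6 libraries, DESeq2 called 1 higher and 6 lower (12.2% of all genes), and so did edgeR with all 18 libraries in 1 fit (16.7% of all genes), while limma called 0. Some transcripts listed as markers of other cell types also had different levels in this comparison, though the cultures were seeded with 1 cell line. The summed level of the 10 immune markers, of which 7 stayed below 1 CPM in every library, was 96.4 to 189 CPM in the rescue and 147 to 217 CPM in Jag1KO + ctrl, nearly all of it CD68. The 3 endothelial markers summed to 1.09 to 3.96 CPM in the rescue and 5.72 to 15.6 CPM in Jag1KO + ctrl, nearly all of it PECAM1, while CDH5 had at most 0.0955 CPM and PTPRC at most 0.196 CPM in any library. The 5 fibroblast markers leaned the other way, with overlap, at 6.61 to 10.5 CPM in the rescue and 5.28 to 6.74 CPM in Jag1KO + ctrl. The immune sums also overlapped. The part of these markers in the result was not tested. In bulk RNA, fewer cells with a transcript and less of it in each cell cannot be told apart.

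**Figure D4:**
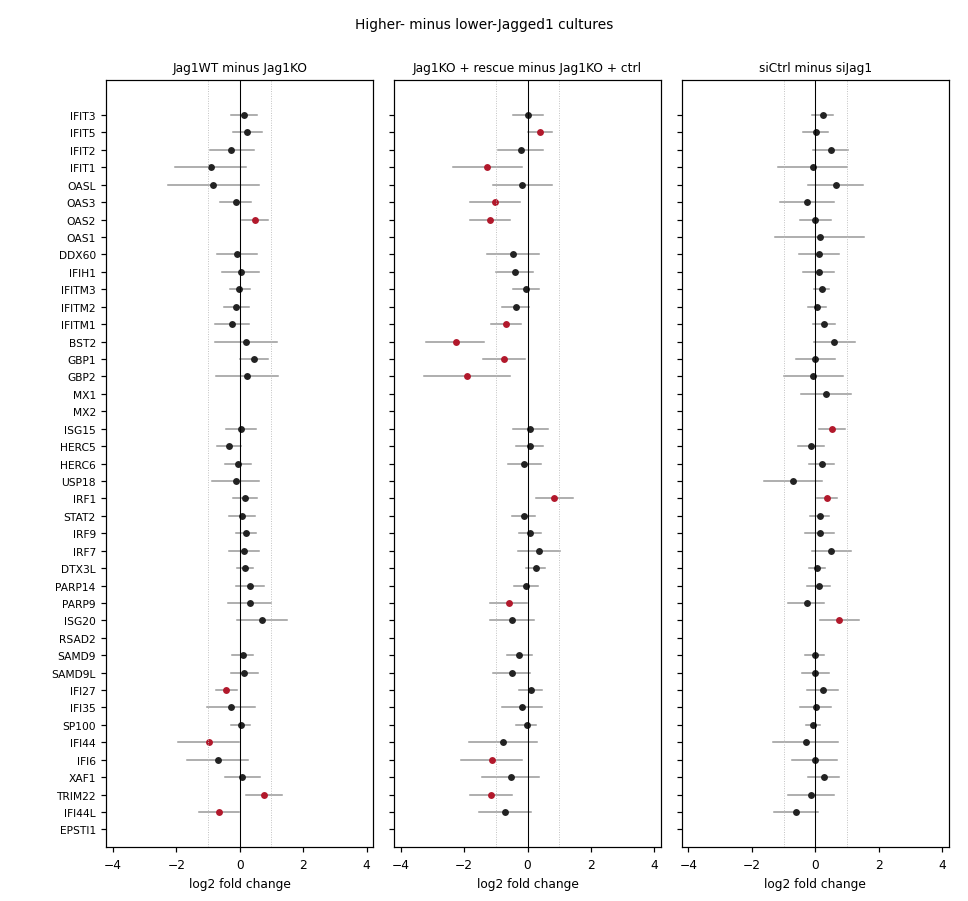
Log2 fold change of each tested member with its 95% interval (edgeR) in the 3 comparisons of cultures with more against less JAG1. Red points have an unadjusted p below 0.05. In Jag1KO + rescue minus Jag1KO + ctrl 27 of 36 points lie below 0, with BST2 lowest at -2.27 and IRF1 highest at 0.84.

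The difference between Jag1WT over Jag1KO and Jag1KO + rescue over Jag1KO + ctrl, which share no library, was tested in 1 model over 12 libraries. OAS2 (1.69 on the log2 scale, SE 0.331, edgeR adjusted p = 0.0489) and TRIM22 (1.94, SE 0.369, edgeR adjusted p = 0.0479) passed among 37 members, as 0.555% of all genes did. Both were higher in Jag1WT than in Jag1KO and lower in Jag1KO + rescue than in Jag1KO + ctrl. When 1 library at a time was dropped, neither passed in 11 of 12 fits, and the fit without Jag1KO + ctrl replicate 3 gave 7 members and 19.9% of all genes. With limma the adjusted p was 0.0480 for TRIM22 and 0.0528 for OAS2, and with the replicate block in edgeR it was 0.0567 for both, so that these calls do not hold in every fit.

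Upstream of the interferon-stimulated genes, the pathway itself was measured through 36 other genes. Of the ligands only IFNL1 and IFNL3 had a row, with at most 0.0772 and 0.0541 CPM, and other interferons were not analysed here. All receptor chains were read, with IFNAR1, a chain of the type I receptor, at 66.1 to 107 CPM, IFNAR2, its partner, at 3.51 to 6.30 CPM and IFNLR1, of the type III receptor, at 0.886 to 5.64 CPM. The kinase gene JAK1 was at 168 to 302 CPM. Chemokines that interferon gamma induces were near the floor, with CXCL10 at most 0.120 CPM and CXCL11 at most 0.877 CPM. The nucleic acid sensors were present, with DDX58 (RIG-I) at 23.9 to 88.4 CPM, CGAS at 19.0 to 63.2 CPM and STING1, its adaptor, at 7.84 to 29.8 CPM.

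None of these pathway genes was called by edgeR in the 7 comparisons (29 or 30 tested in each). At an unadjusted p below 0.05 there was 1 of 30 in siCtrl against Jag1WT (1.38% of all genes), 1 of 30 in siJag1 against Jag1WT (3.91%), 1 of 30 in Jag1KO + ctrl against Jag1KO (5.81%) and 7 of 30 in Jag1KO + rescue against Jag1KO (16.9%). In Jag1WT against Jag1KO there were 5 of 30 (8.81% of all genes) and in siCtrl against siJag1 1 of 30 (3.83%). In Jag1KO + rescue against Jag1KO + ctrl there were 13 of 29 (30.8% of all genes), of which 8 had lower values (16.4%). STING1 (log2 fold change -1.16), DDX58 (-1.07) and the kinase TYK2 (-0.70) were among those with lower values in the rescue, with the phosphatase PTPN6 (-1.73) the widest, and CGAS (0.77) and the repressor IRF2 (0.57) among those with higher values, none past the adjusted threshold in edgeR.

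The libraries also differed in growth state, which moved with these genes. The mean log2(CPM + 1) of 15 genes of the cell cycle and DNA replication, such as MKI67, CDK1 and MCM2, ran from 4.48 to 6.91. It was 6.01 to 6.91 in Jag1KO replicates 2 and 3, Jag1KO + ctrl replicates 1 and 2 and siJag1 replicate 2, and 4.48 to 5.50 in the other 13 libraries. In Jag1KO + rescue it was 4.69 to 5.41 and in Jag1KO + ctrl 4.84 to 6.91. Replicate 2 had the highest mean in Jag1WT (5.23), Jag1KO + rescue (5.41), Jag1KO + ctrl (6.91), siCtrl (5.50) and siJag1 (6.79). In Jag1KO it was replicate 3 (6.28, against 6.01 in replicate 2). In an edgeR model over all 18 libraries with the 6 groups and this mean as a term, 21 of 37 members rose with it within groups and 3 fell (adjusted p below 0.05), while 24.1% of 12742 genes rose (the growth genes themselves left out) and 21.3% fell. The median change was 0.21 on the log2 scale per unit of the mean for the members and 0.01 for all genes. The model had no term for the replicate number, so it did not separate growth state from replicate.

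The steepest were GBP2 (0.86 per unit on the log2 scale, SE 0.134), IFIT1 (0.83, SE 0.119), IFI44 (0.74, SE 0.132), OASL (0.62, SE 0.190), OAS3 (0.56, SE 0.0698) and BST2 (0.55, SE 0.111). The 3 that fell were transcription factors: IRF7 (-0.32, SE 0.0911), STAT2 (-0.21, SE 0.0486) and IRF9 (-0.15, SE 0.0526). IFITM3 (0.05, SE 0.0640), ISG15 (-0.14, SE 0.0839) and IFI27 (-0.09, SE 0.0614) did not pass the test. Leaving out each library in turn gave 15 to 21 members that rose and 2 to 4 that fell, and limma gave 18 and 4. With the growth genes as a term, edgeR called 1 member higher (IRF1) and 3 lower (BST2, OAS2 and TRIM22) in Jag1KO + rescue against Jag1KO + ctrl, where 8.09% of all genes were called. It called 3 higher in Jag1WT than in Jag1KO (GBP1, OAS2 and TRIM22; 1.83% of all genes), IFI27 higher and OAS2 lower in Jag1KO + rescue than in Jag1KO (1.41% of all genes), and 0 in the comparisons of siCtrl, siJag1 and Jag1WT and of Jag1KO + ctrl with Jag1KO.

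**Figure D5:**
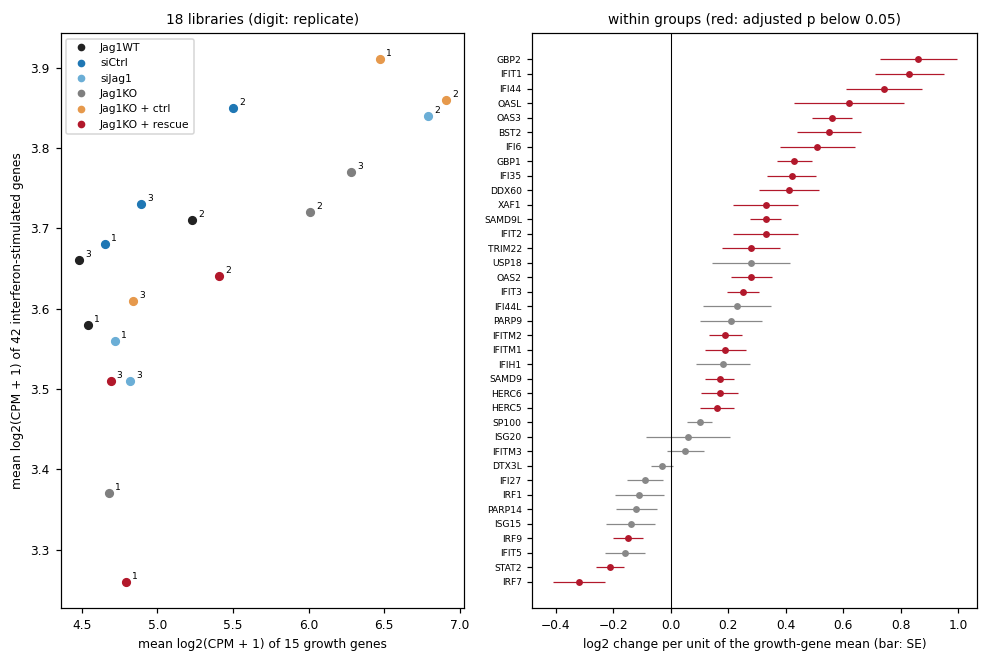
Left, the mean log2(CPM + 1) of the 42 interferon-stimulated genes against that of 15 growth genes in each library. Right, the log2 change of each tested member per unit of the growth-gene mean within groups, with its SE (edgeR), where red marks an adjusted p below 0.05. The 5 libraries at 6.01 or above on the growth axis lie between 3.72 and 3.91 on the other and the remaining 13 between 3.26 and 3.85, and GBP2, IFIT1 and IFI44 have the steepest changes.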

How the data were processed

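RNA of 18 cultures (6 groups of 3) was sequenced by the authors as stranded TruSeq mRNA libraries, aligned to hg38 and counted per gene from uniquely mapped reads. The submitters' processing notes name MultiQC 1.5, R 3.6.1, featureCounts (its version is not given in the sources used here) and edgeR 3.28.0. The deposited counts are raw reads per gene, the deposited CPM signal is those counts scaled by the authors to TMM-normalised library sizes, and the deposited RPKM divide it by gene length. Totals of 10330581 to 18327890 reads a library set the precision, and a count of 0 allows up to 3 reads, counting error only. The 292 entries without a symbol (at most 0.0442% of a library's reads) were left out, as were 3 RPKM columns whose names match no label.

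Groups came from the labels. Each comparison of 3 against 3 libraries was fitted on all genes above 1 CPM in at least 3 of 6 libraries (9 of 18 and 6 of 12 in larger fits) with edgeR 4.0.16 (TMM, quasi-likelihood test) in R 4.3.3, and called at a Benjamini-Hochberg adjusted p below 0.05 and a change over 1.5-fold. The scripts were tested on simulated data. Alternatives were limma 3.58.1 on log2(CPM + 1), DESeq2 1.42.0, other filters, all 18 libraries in 1 fit, the replicate number as a block, and each library left out. A fit with growth genes as a term was chosen after seeing the data. Members and gene lists were chosen with earlier results of these data known. Named were the 3 members with the widest difference in each comparison and the highest RPKM of each role, and further members were named after their values were seen. No 2 replicates agreed within sampling noise (chi-square per degree of freedom 7.37 to 107 over 18 pairs).

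Same-numbered libraries deviated together in siCtrl and siJag1 (correlations 0.543, 0.522 and 0.264), siCtrl and Jag1WT (0.595, 0.713 and 0.210) and siJag1 and Jag1WT (0.489, 0.350 and 0.149). The other comparisons each had a negative correlation among their 3. Replicates 1 and 2 still correlated more strongly in Jag1WT against Jag1KO (0.632, 0.667 and -0.0137) than in siJag1 and Jag1WT. The same held for Jag1KO + rescue against Jag1KO (0.702, 0.704 and -0.142). Only comparisons with all 3 positive were read as paired, from the data alone, and pairing was not tested. The main fits, which gave the SE, intervals and p-values above, did not use the replicate numbers. The replicate block did, as an alternative. The block changed no call of a member in the 3 comparisons of siCtrl, siJag1 and Jag1WT. Figures were drawn with matplotlib 3.10.9 and NumPy 2.4.6 in Python 3.11.15.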

Additional observations from a re-analysis of the deposited data

Results flagged for a closer look

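Both members below differed between 2 contrasts of JAG1, Jag1WT minus Jag1KO and Jag1KO + rescue minus Jag1KO + ctrl, in a test of that difference (edgeR quasi-likelihood test over 12 libraries, Benjamini-Hochberg adjustment). For OAS2 the difference was 1.69 on the log2 scale (SE 0.331, adjusted p = 0.0489), from 0.48 in the first contrast and -1.18 in the second. For TRIM22 it was 1.94 (SE 0.369, adjusted p = 0.0479), from 0.76 and -1.16. In both genes the first contrast and the second were each free of overlap between groups. When 1 library at a time was dropped the difference was 1.46 to 1.91 for OAS2 and 1.80 to 2.15 for TRIM22, and the adjusted p was below 0.05 for both in 1 of 12, the fit without Jag1KO + ctrl replicate 3, in which 19.9% of all genes passed. By limma the adjusted p was 0.0528 for OAS2 and 0.0480 for TRIM22, and with the replicate block in edgeR 0.0567 for both.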

How the results depend on the processing

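The 21 values of named members were recomputed under the alternative settings, which gave 291 recomputed values in all. The setting without the fold threshold left the estimates as they were. Of the 291, 277 kept direction and side of the threshold, 12 newly passed it and 2 turned direction (IFI44 in siJag1 minus Jag1WT, -0.08 with the growth genes as a term and -0.03 without siJag1 replicate 2, in a range of -0.03 to 0.90 on leaving out 1 library). Member calls stayed at 0 under every alternative run in siCtrl minus siJag1, siCtrl minus Jag1WT and siJag1 minus Jag1WT. In Jag1WT minus Jag1KO, 3 were called higher with the growth genes as a term, and leaving out 1 library gave 0 to 3 lower. In Jag1KO + rescue minus Jag1KO + ctrl, DESeq2 and the fit of all 18 libraries each called 1 higher and 6 lower, the growth term 1 and 3, and leaving out 1 library 0 to 1 and 0 to 10. In Jag1KO + ctrl minus Jag1KO, leaving out 1 library gave 0 to 1 higher and 0 to 1 lower. In Jag1KO + rescue minus Jag1KO, DESeq2 and the growth term called 1 higher and 1 lower (1.86% and 1.41% of all genes). The fit of all 18 libraries called 1 higher and 0 lower (0.596% of all genes). The replicate block called 1 higher and 4 lower (8.52% of all genes), where same-numbered libraries correlated at 0.702, 0.704 and -0.142. The replicate block changed no other member call in the 7 comparisons. For the difference between the contrasts of Jag1WT and of the rescue, 2 members passed (0.555% of all genes). By limma 1 passed (0.601%) and with the replicate block 0 (0.398%). With the growth term 7 passed, as did 21.9% of all genes. Leaving out 1 library gave 0 to 7, with 19.9% of all genes in the fit that gave 7. For siCtrl against the empty plasmid, leaving out 1 library gave 0 to 2. The cause was not tested. Members at or below 1 CPM were too low to be tested in most comparisons.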
